A study of Homo sapiens with 28 samples.

Results

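Protocadherins, the largest group within the cadherin superfamily of cell adhesion molecules, were followed through 13 groups of the human endometrial carcinoma cell line AN3CA by RNA sequencing. Members were chosen by gene symbol alone, as every numbered PCDH gene and every PCDHA, PCDHB and PCDHG gene in the count tables. The rule found 64 genes among 26346 symbols. Of these, 53 belong to the clustered families, with 15 alpha, 16 beta and 22 gamma genes, and 11 are non-clustered. The series asks how ARID1A and ARID1B, mutually exclusive subunits of the cBAF chromatin remodeler, govern its local condensation and transcriptional activation. Each of 12 constructs had 2 libraries. The ARID1A constructs were the truncations CBR and delIDR1, DBDmut with a mutated ARID domain, a hybrid carrying the disordered region (IDR) of DDX4, an AQG scramble called AQGscram, a mutant labelled 42YS and the wild type (WT). The ARID1B constructs were M2, which lacks S320 to G327, the deletions A457_G461del, Block13del and Block9del, and the WT. The reference was an empty vector with 4 libraries. All groups share the AN3CA background and are labelled as untreated. The labels do not give the endogenous ARID1A or ARID1B status, the promoter of the constructs, clonality, or whether replicates were separate cultures, so p-values measure the spread between these libraries.

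Clustered protocadherins lie in tandem on chromosome 5, and each variable exon of the alpha and gamma clusters is transcribed from its own promoter and spliced to constant exons shared by that cluster. Beta genes are single-exon genes without a shared constant part. In neurons, promoter choice gives each cell its own combination of isoforms, which bind the same isoforms on a neighbouring cell. CTCF and cohesin bring promoters to distant enhancers, and DNA methylation and, in mouse, the SMCHD1 protein keep unused promoters silent. Non-clustered members such as PCDH7, PCDH10, PCDH19 and PCDH20 are encoded at scattered loci and act in cell adhesion, cell sorting and axon growth. PCDH10 and PCDH20 are also known as genes silenced by promoter methylation in several carcinomas.

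Reads on genes ran between 16.6 and 27.9 M reads per library, with a median of 22 M, and levels are given as TMM-scaled CPM, the reads of a gene per M reads on genes. The libraries formed 3 sets by the share of gene reads on the expected strand, which the labels do not give. Set 1, at 84.5 to 87.8%, held ARID1A CBR, delIDR1, DBDmut and WT with empty vector replicates 1 and 2. Set 2, at 98.1 to 98.6%, held the DDX4 hybrid, ARID1B M2 and WT with empty vector replicates 3 and 4. Set 3, at 96.7 to 97.9%, held the other 5 constructs and no empty vector library, so for these the set and the construct cannot be told apart. The empty vector pairs differed from each other in 29 of 46 tested protocadherins, with 6 higher and 23 lower in replicates 3 and 4 than in replicates 1 and 2, where 58.5% of all tested genes differed. For this reason each construct of sets 1 and 2 was also set against the control libraries of the same set alone. These are called the own pair here, and values against it are given for the main results. In the fit over all libraries the 4 empty vector libraries formed 1 group. The difference between their pairs thus entered the spread behind every p-value of that fit, including comparisons between constructs of 1 set.

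RNA of the targeted genes showed which of ARID1A and ARID1B was introduced in all but 1 group, and could not tell mutants of the same gene apart. ARID1A averaged 1017 CPM with CBR, 589 with delIDR1, 665 with DBDmut, 523 with the DDX4 hybrid, 374 with 42YS and 733 ± 43.8 with WT (SD, n = 2), against 288 ± 12.5 CPM with empty vector (SD, n = 4). The libraries labelled AQGscram had 209.9 and 284 CPM of ARID1A, against 272 to 299.6 CPM with empty vector, so the construct was not seen in them and directions drawn from these libraries rest on the label alone. ARID1B averaged 4250.4 CPM with M2, 2236 with A457_G461del, 883 with Block13del, 344 with Block9del and 3597 ± 225 with WT (SD, n = 2), against 88.5 to 104 CPM with empty vector (n = 4). Construct RNA therefore differed between the ARID1B constructs, and its part in the differences between them was not tested. Of the markers of the labelled tissue, the epithelial keratin KRT18 had 9.89 to 83.2 CPM and the Mullerian factors HOXA10 and HOXA11 had 5.83 to 22.7 and 4.44 to 16.2 CPM, while EPCAM, CDH1 and PAX8 reached at most 0.809, 1.63 and 0.234 CPM. Of mesenchymal markers, VIM had 2176 to 6614 CPM and ZEB1 111 to 212 CPM, while ZEB2, TWIST1 and CDH2 reached at most 0.234, 0.0703 and 2.11 CPM. Of neural markers, NES had 252 to 538 CPM and TUBB3 139 to 399 CPM. ELAVL4 had no read in any library, and SNAP25, STMN2, GFAP and SOX2 reached at most 0.089, 0.0449, 0.234 and 1.39 CPM. MAP2 averaged 2.3 CPM with ARID1A WT and 4.09 CPM with ARID1B WT, against 0 CPM with empty vector. The summed level of 12 Mullerian and epithelial markers was 32.1 to 51.9 CPM with empty vector. It was 82.8 to 83.3 CPM with ARID1A WT and 79.1 to 81.8 CPM with ARID1B WT. KRT18 alone averaged 46.0 and 47.0 CPM with these constructs, against 11.7 CPM with empty vector. Of the 10 tested markers, 5 were called higher and 1 lower with each, where 44.5 and 43.1% of all genes were called. The part of these markers in the results was not tested.

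The promoters of the 6 clustered genes with most of the reads of their clusters are shown because isoform choice is made at these sequences. Most clustered promoters carry a conserved element with the core CGCT. Only this core was searched, in RefSeq promoters of GRCh38.p14, from 250 bases before to 50 bases after each start. A CGCT found in this way, as in PCDHAC2, need not be part of the element. Each line gives the 90 bases before the start, 5′ to 3′ on the plus strand, with capitals marking the CGCT that starts 70 to 30 bases before the start.
PCDHGB7, chr5:141417587-141417676: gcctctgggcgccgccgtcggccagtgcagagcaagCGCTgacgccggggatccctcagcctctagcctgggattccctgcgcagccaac
PCDHGA10, chr5:141412897-141412986: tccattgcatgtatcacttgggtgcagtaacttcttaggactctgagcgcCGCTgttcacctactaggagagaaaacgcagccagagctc
PCDHAC2, chr5:140966386-140966475: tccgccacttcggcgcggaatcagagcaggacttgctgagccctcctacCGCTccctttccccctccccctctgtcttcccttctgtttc
PCDHB2, chr5:141094525-141094614: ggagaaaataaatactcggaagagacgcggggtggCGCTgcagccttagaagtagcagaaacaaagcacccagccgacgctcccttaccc
PCDHB16, chr5:141182297-141182386: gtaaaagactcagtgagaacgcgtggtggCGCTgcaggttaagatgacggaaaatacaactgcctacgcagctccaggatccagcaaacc
PCDHB14, chr5:141223253-141223342: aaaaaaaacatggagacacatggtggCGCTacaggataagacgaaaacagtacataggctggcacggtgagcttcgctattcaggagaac

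The table held promoters of 56 of the 64 members. CGCT occurred on either strand in 46 of 47 clustered promoters (97.9%) and 8 of 9 non-clustered ones (88.9%), while 69.4% of all 27305 promoters held it. Its position set the clustered genes apart. CGCT on the strand of the gene, starting 70 to 30 bases before the transcription start, was found in 36 of 47 clustered promoters (76.6%), 1 of 9 non-clustered promoters (11.1%) and 13.7% of all promoters. This window was chosen after the positions had been seen. In the 6 promoters printed above the motif starts between 40 and 64 bases before the start. In the beta genes PCDHB2, PCDHB16 and PCDHB14 it is preceded by ggtgg, which none of the other 3 has. A single fixed form of the CTCF core motif, searched on both strands, was in 1 of 47 clustered promoters (2.13%) and in 2.49% of all promoters. CTCF sites of any other form were not counted. The search therefore cannot tell whether these promoters hold CTCF sites, and CTCF binding was not tested.

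Protocadherin RNA in these cells was concentrated in a few genes of each cluster. All but PCDHB1, which had no read, had at least 1 read, 41 members were read in all 28 libraries, 22 were above 1 CPM in every group and 25 never reached 1 CPM in any group. The filter on low counts kept 46 members, made up of 8 alpha, 14 beta, 19 gamma and 5 non-clustered genes. The 18 others had 536 reads in all libraries together. They were PCDH8, PCDH9, PCDH12, PCDH15, PCDH17 and PCDH18 with 4 to 42 reads each, PCDHA1 to PCDHA7 with 3 to 48, PCDHB1 and PCDHB6 with 0 and 76, and PCDHGA3, PCDHGA8 and PCDHGB5 with 33 to 109. Averaged over the 13 groups, PCDHGB7 took 71.4% of gamma reads and PCDHAC2, a gene of the C type, a class transcribed without random choice in neurons, took 64.7% of alpha reads. PCDHB2, PCDHB16 and PCDHB14 took 35.9, 24.3 and 15.0% of beta reads. Per kilobase of exon not shared with other genes, the mean level was 33.3 CPM for PCDHGB7, 16.2 for PCDHB2, 12.9 for PCDH7, 9.7 for PCDHAC2, 9.03 for PCDHB16, 5.77 for PCDHB14, 5.22 for PCDH1 and 3.32 for PCDHGA10. The same measure was 0.398 CPM for PCDH19, 0.233 for PCDH20 and 0.073 for PCDH10, so these were low in all groups even where they changed most. Counts of near-identical genes, such as PCDHB8 and PCDHB16, are uncertain because reads can be split between them.

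The non-clustered genes PCDH10, PCDH20, PCDH19 and PCDH7 were all higher, and PCDH1 lower, with ARID1A WT and with ARID1B WT than with empty vector, and each of these 5 calls also held against the own pair.

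PCDH10, a delta-2 protocadherin that recruits an actin-regulating complex to cell contacts, was nearly unread in control cells. It had 1.52 and 1.73 CPM with ARID1A WT and 2.14 and 2.36 CPM with ARID1B WT, against 0.0453, 0.045, 0 and 0 CPM with empty vector. Among ARID1A constructs it had 0.792 and 0.746 CPM with CBR, 1.0 and 0.719 with delIDR1, 2.35 and 2.63 with DBDmut, 0.19 and 0.176 with the DDX4 hybrid, 0.226 and 0.0397 in the libraries labelled AQGscram and 0.17 and 0.0824 with 42YS. Among ARID1B constructs it had 0.229 and 0.223 CPM with M2, 0.367 and 0.196 with A457_G461del, 0.105 and 0.083 with Block13del and 0 and 0.0869 with Block9del. Both WT groups and DBDmut stood above every other group, and in 10 of 12 constructs both libraries lay above all empty vector libraries, the exceptions being AQGscram and Block9del. ARID1A WT had 63 reads and ARID1B WT 89, against 2 reads over the 4 empty vector libraries. Scaled for depth, that is 63.6 times as many for ARID1A WT (95% counting interval 16.9 to 536) and 87.6 times for ARID1B WT (23.5 to 735), with adjusted p = 2.72e-08 and 5.38e-09 in edgeR's quasi-likelihood test. Against the own empty vector pair ARID1A WT had 36.3 times as many reads (9.65 to 306), and ARID1B WT was at least 25.0-fold higher, taking the unread pair as 3 reads over the group. The ratio was 29.8 for CBR (7.65 to 256), 33.5 for delIDR1 (8.67 to 286) and 96.7 for DBDmut (26.1 to 809), all called. With the own pair as control these ratios were 17 (4.37 to 146), 19.1 (4.95 to 164) and 55.2 (14.9 to 462). It was 7.09 for the DDX4 hybrid (1.51 to 66.5), 8.77 for M2 (1.91 to 81.4) and 10.8 for A457_G461del (2.49 to 98.3), also called. Against the own pair, unread, the DDX4 hybrid was at least 2.03-fold and M2 at least 2.51-fold higher. The DDX4 hybrid call was lost without its replicate 1 (adjusted p = 0.0642). AQGscram, 42YS, Block13del and Block9del did not pass the test.

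PCDH20, a non-clustered protocadherin often lost in carcinomas, showed the widest spread between ARID1A constructs. It had 2.4 and 2.44 CPM with ARID1A WT and 4.23 and 3.16 CPM with ARID1B WT, against 0.0453, 0.315, 0.0654 and 0.223 CPM with empty vector. Among ARID1A constructs it had 0.704 and 0.606 CPM with CBR, 0.0436 and 0.0449 with delIDR1, 4.75 and 5.07 with DBDmut, 0.229 and 0.246 with the DDX4 hybrid, 0.317 and 0.238 in the libraries labelled AQGscram and 0.467 and 0.165 with 42YS. Among ARID1B constructs it had 0.306 and 0.312 CPM with M2, 0.53 and 0.862 with A457_G461del, 0.315 and 0.373 with Block13del and 0.426 and 0.391 with Block9del. DBDmut stood highest of all groups and delIDR1 lowest, with 1 read in each of its libraries. The log2 fold change was 3.81 ± 0.36 (SE) for ARID1A WT against empty vector (adjusted p = 4.22e-08) and 4.42 ± 0.34 for ARID1B WT (adjusted p = 3.15e-09), and 3.70 and 4.56 against the own pair. PCDH20 was also called higher than empty vector with DBDmut at 4.83, CBR at 1.94, A457_G461del at 2.03 and Block9del at 1.26 (log2 fold changes), and against the own pair DBDmut was at 4.72 and CBR at 1.83. It was not called with delIDR1, where the log2 fold change was -1.79 (adjusted p = 0.0769), nor with the DDX4 hybrid, AQGscram, 42YS, M2 or Block13del. The Block9del call (adjusted p = 0.0424) was lost without either of its libraries or without empty vector replicate 1 or 3 (adjusted p 0.0802 to 0.177), and with DESeq2 (adjusted p = 0.0566).

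PCDH19, an X-linked delta-2 protocadherin that pairs with N-cadherin and whose mutation causes an epilepsy, was raised by more constructs than PCDH20. It had 8.55 and 9.0 CPM with ARID1A WT and 6.04 and 5.24 CPM with ARID1B WT, against 1.41, 1.26, 1.63 and 2.01 CPM with empty vector. Among ARID1A constructs it had 3.08 and 3.45 CPM with CBR, 5.63 and 4.67 with delIDR1, 9.94 and 10.5 with DBDmut, 3.08 and 2.81 with the DDX4 hybrid, 2.08 and 1.23 in the libraries labelled AQGscram and 2.21 and 2.1 with 42YS. Among ARID1B constructs it had 3.52 and 2.8 CPM with M2, 3.59 and 2.19 with A457_G461del, 1.78 and 1.78 with Block13del and 1.71 and 0.869 with Block9del. DBDmut and ARID1A WT were highest, and AQGscram, Block13del and Block9del overlapped with empty vector. The log2 fold change was 2.49 ± 0.218 (SE) for ARID1A WT (adjusted p = 1.43e-08; own pair 2.72) and 1.85 ± 0.228 for ARID1B WT (adjusted p = 2.14e-06; own pair 1.61). It was also called with CBR at 1.06, delIDR1 at 1.72, DBDmut at 2.71, the DDX4 hybrid at 0.92, M2 at 1.02 and A457_G461del at 0.89. Against the own pair the log2 fold change was 1.29 with CBR, 1.95 with delIDR1, 2.93 with DBDmut, 0.68 with the DDX4 hybrid and 0.79 with M2, all called. The call was lost for the DDX4 hybrid without its replicate 1 (adjusted p = 0.053) and for A457_G461del without its replicate 1 (adjusted p = 0.237).

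PCDH7, a delta-1 protocadherin that binds a catalytic subunit of protein phosphatase 1, was the most abundant non-clustered member and moved less. It had 121 and 124 CPM with ARID1A WT and 114 and 119.8 CPM with ARID1B WT, against 81.8, 82.9, 71.0 and 64.7 CPM with empty vector. Among ARID1A constructs it had 117 and 117 CPM with CBR, 108 and 109.6 with delIDR1, 106 and 111 with DBDmut, 75.9 and 77.1 with the DDX4 hybrid, 72.7 and 63.3 in the libraries labelled AQGscram and 75.9 and 77.4 with 42YS. Among ARID1B constructs it had 98.8 and 97.1 CPM with M2, 93.1 and 88.3 with A457_G461del, 71.7 and 70.2 with Block13del and 62.9 and 67.3 with Block9del. In 7 of 12 constructs both libraries lay above every empty vector library. The log2 fold change was 0.70 ± 0.076 (SE) for ARID1A WT (adjusted p = 2.84e-07; own pair 0.57) and 0.63 ± 0.0761 for ARID1B WT (adjusted p = 1.52e-06; own pair 0.79). CBR, delIDR1, DBDmut, M2 and A457_G461del were called higher, at log2 fold changes of 0.64, 0.53, 0.53, 0.38 and 0.27, and Block9del was called lower, at -0.21 (adjusted p = 0.043). Against the own pair CBR, delIDR1, DBDmut and M2 were at 0.50, 0.40, 0.40 and 0.53, and the DDX4 hybrid was also called higher, at 0.18 (adjusted p = 0.0151). The A457_G461del call was lost without its replicate 1 (adjusted p = 0.104). The Block9del call was lost without either of its libraries or without empty vector replicate 1 or 2 (adjusted p 0.0781 to 0.28), and with DESeq2 (adjusted p = 0.0583).

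PCDH1, a delta-1 protocadherin of epithelial cell contacts, showed a wide split between the empty vector pairs. It had 27.9 and 28.8 CPM with ARID1A WT and 20.9 and 19 CPM with ARID1B WT, against 100.3, 94.4, 24.7 and 23.2 CPM with empty vector. Among ARID1A constructs it had 46.3 and 48.9 CPM with CBR, 59.6 and 59.4 with delIDR1, 20.5 and 18.7 with DBDmut, 23.4 and 20.6 with the DDX4 hybrid, 23.9 and 23.0 in the libraries labelled AQGscram and 18.2 and 17.3 with 42YS. Among ARID1B constructs it had 23.9 and 25.0 CPM with M2, 17.4 and 17 with A457_G461del, 14.3 and 14.1 with Block13del and 12.2 and 13.1 with Block9del. Within set 1 every construct was below the own empty vector pair and CBR and delIDR1 lay between that pair and WT, whereas in set 2 the values of constructs and empty vector were close together. The log2 fold change was -1.11 ± 0.413 (SE) for ARID1A WT (adjusted p = 0.0351; own pair -1.78 at adjusted p = 1.51e-18) and -1.62 ± 0.428 for ARID1B WT (adjusted p = 0.00492; own pair -0.27 at adjusted p = 0.00498). The ARID1A WT call in the fit over all libraries was lost without either ARID1A WT library or without empty vector replicate 1 or 2, with adjusted p of 0.0912 to 0.153, and the ARID1B WT call without ARID1B WT replicate 2, with adjusted p = 0.0582.

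**Figure D1:**
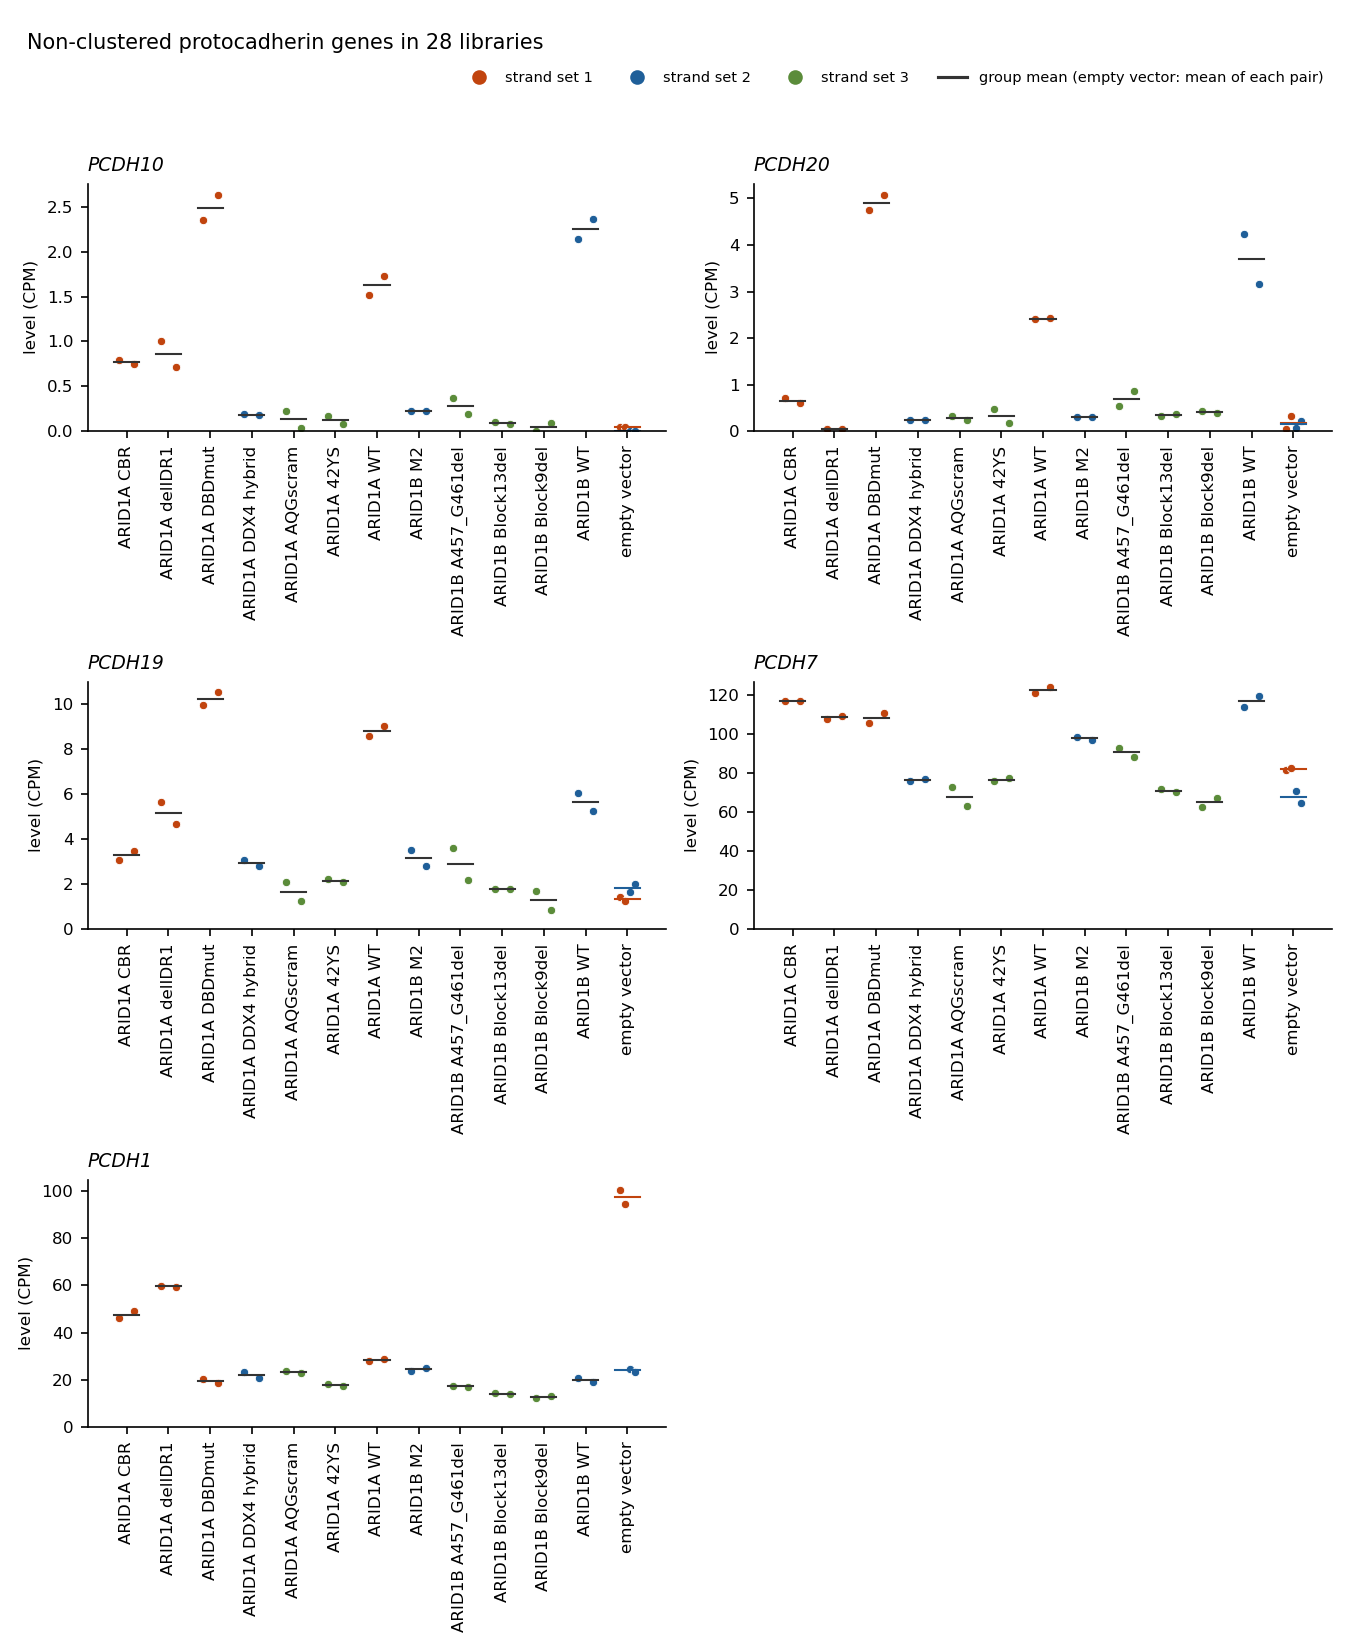
Level in CPM of PCDH10, PCDH20, PCDH19, PCDH7 and PCDH1 in each of 28 libraries by group, 1 point per library coloured by strand set, with bars at the group mean and, for empty vector, at the mean of each pair. PCDH10 and PCDH20 stand high with the WT constructs and DBDmut, and PCDH1 shows the split between the empty vector pairs.

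Over all members, ARID1A WT against empty vector gave 9 higher and 1 lower of 46 tested, where 44.5% of all tested genes were called. These were 5 higher of 41 clustered genes, and 4 higher and 1 lower of 5 non-clustered genes. Among the 5, PCDH10 and PCDH20 reached at most 0.0453 and 0.315 CPM with empty vector. The filter on low counts kept them through construct libraries, so against empty vector they could hardly be called lower. Against the own pair it was 12 higher and 14 lower, where 60.7% of all genes were called, and all 10 calls of the wider fit were among them. ARID1B WT against empty vector gave 8 higher and 5 lower, where 43.1% of all genes were called, and 14 higher and 2 lower against its own pair, where 52% were. In both fits PCDH7, PCDH10, PCDH19, PCDH20, PCDHB14, PCDHGA9 and PCDHGA10 were higher and PCDH1 lower with ARID1B WT. With ARID1A WT the same 8 genes were called the same way in both fits, joined by PCDHAC2 and PCDHGB7. The shares of members called were below those of all genes, and the median log2 fold change over the 46 members was -0.05 with ARID1A WT, against -0.06 over all tested genes. Both WT comparisons share their 4 empty vector libraries. Set against each other, ARID1A WT and ARID1B WT differed in 0 of 46 members in edgeR's quasi-likelihood test and in 0 with DESeq2, with 4 members at an unadjusted p under 0.05, where 13.5% of all genes were called. When each was first set against its own empty vector pair, the response was larger to ARID1A WT in 5 members and smaller in 14, where 41.6% of all genes were called.

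In the clusters, PCDHGB7, PCDHB2 and PCDHAC2 had the most reads of gamma, beta and alpha in every group, and PCDHB14 and PCDHGA10 rose with both WT constructs. PCDHB14, a beta gene, had 40.6 and 39.8 CPM with ARID1A WT and 38.4 and 41.0 CPM with ARID1B WT, against 27.3, 26.8, 18.9 and 19.7 CPM with empty vector. Across the other constructs it lay between 13.9 CPM in a 42YS library and 37.2 CPM in a CBR library. All WT libraries were above all empty vector libraries. The log2 fold change was 0.79 ± 0.105 (SE) for ARID1A WT (adjusted p = 4.29e-06; own pair 0.57) and 0.77 ± 0.105 for ARID1B WT (adjusted p = 7.58e-06; own pair 1.04). PCDHGA10, of the A subfamily of gamma genes, had 23.6 and 24.5 CPM with ARID1A WT and 25.7 and 26.0 CPM with ARID1B WT, against 6.21, 7.73, 12.8 and 13.2 CPM with empty vector. The WT libraries stood apart from the controls again, and of the mutants DBDmut came nearest, at 20.2 and 22.6 CPM. The log2 fold change was 1.29 ± 0.196 (SE) for ARID1A WT (adjusted p = 2.26e-05; own pair 1.79) and 1.39 ± 0.195 for ARID1B WT (adjusted p = 1.06e-05; own pair 0.99). The less abundant PCDHGA9, just ahead of the B subfamily gene PCDHGB6 in the cluster, averaged 1.33 ± 0.0244 CPM with ARID1A WT and 1.66 ± 0.325 with ARID1B WT (SD, n = 2), against 0.645 ± 0.16 CPM with empty vector (SD, n = 4), and was called higher with both (adjusted p = 0.0187 and 0.0024). These PCDHGA9 calls were lost without either ARID1A WT library (adjusted p 0.0829 to 0.088) and without ARID1B WT replicate 2 (adjusted p = 0.0585).

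The remaining leading genes did not move alike with both WT constructs. PCDHGB7 had 119 and 123 CPM with ARID1A WT and 113 and 118 CPM with ARID1B WT, against 51.7, 55.6, 108 and 109 CPM with empty vector. Empty vector replicates 3 and 4 were close to the WT libraries and replicates 1 and 2 far below them. PCDHGB7 was called higher with ARID1A WT, at a log2 fold change of 0.58 ± 0.212 (SE; adjusted p = 0.0314) over all empty vector libraries and 1.17 against the own pair. The wider call was lost without either ARID1A WT library or without empty vector replicate 1 or 2 (adjusted p 0.0695 to 0.14). With ARID1B WT it was not called, at 0.51 (adjusted p = 0.0578) and 0.09 against the own pair. PCDHAC2 had 39.6 and 39.7 CPM with ARID1A WT and 31.2 and 31.9 CPM with ARID1B WT, against 21.2, 20.9, 31.5 and 32.2 CPM with empty vector. ARID1A WT lay above every control library and ARID1B WT level with replicates 3 and 4. PCDHAC2 was called higher with ARID1A WT at 0.59 ± 0.147 (adjusted p = 0.00281; own pair 0.91), and not with ARID1B WT at 0.26 (adjusted p = 0.169; own pair -0.02). Compared directly, ARID1A WT and ARID1B WT were not called different for PCDHAC2 (log2 difference 0.33, adjusted p = 0.221) or PCDHGB7 (0.07, adjusted p = 0.894). As responses to the own pairs they differed, by 0.93 for PCDHAC2 (adjusted p = 7.49e-06) and 1.08 for PCDHGB7 (adjusted p = 1.43e-07), a difference that rests on the control pairs, which stood apart for both genes.

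PCDHB2 had 67.2 and 70.6 CPM with ARID1A WT and 69.9 and 70.8 CPM with ARID1B WT, against 73.0, 74.8, 58.9 and 58.5 CPM with empty vector. The WT libraries lay between the control pairs, and the gene was called with neither WT construct over all control libraries (log2 fold changes of 0.05 and 0.08). PCDHB16 had 42.3 and 42.3 CPM with ARID1A WT and 42.1 and 43.0 CPM with ARID1B WT, against 57.0, 56.6, 33.4 and 35.6 CPM with empty vector. These libraries too lay between the control pairs. Against the own pair PCDHB16 was called lower with ARID1A WT, at -0.43 (adjusted p = 3.45e-06), and higher with ARID1B WT, at 0.30 (adjusted p = 0.000783), so its direction turned with the choice of control libraries. PCDHB2 against the own pair was -0.10 with ARID1A WT (adjusted p = 0.0782) and was called higher with ARID1B WT, at 0.26 (adjusted p = 0.000103).

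**Figure D2:**
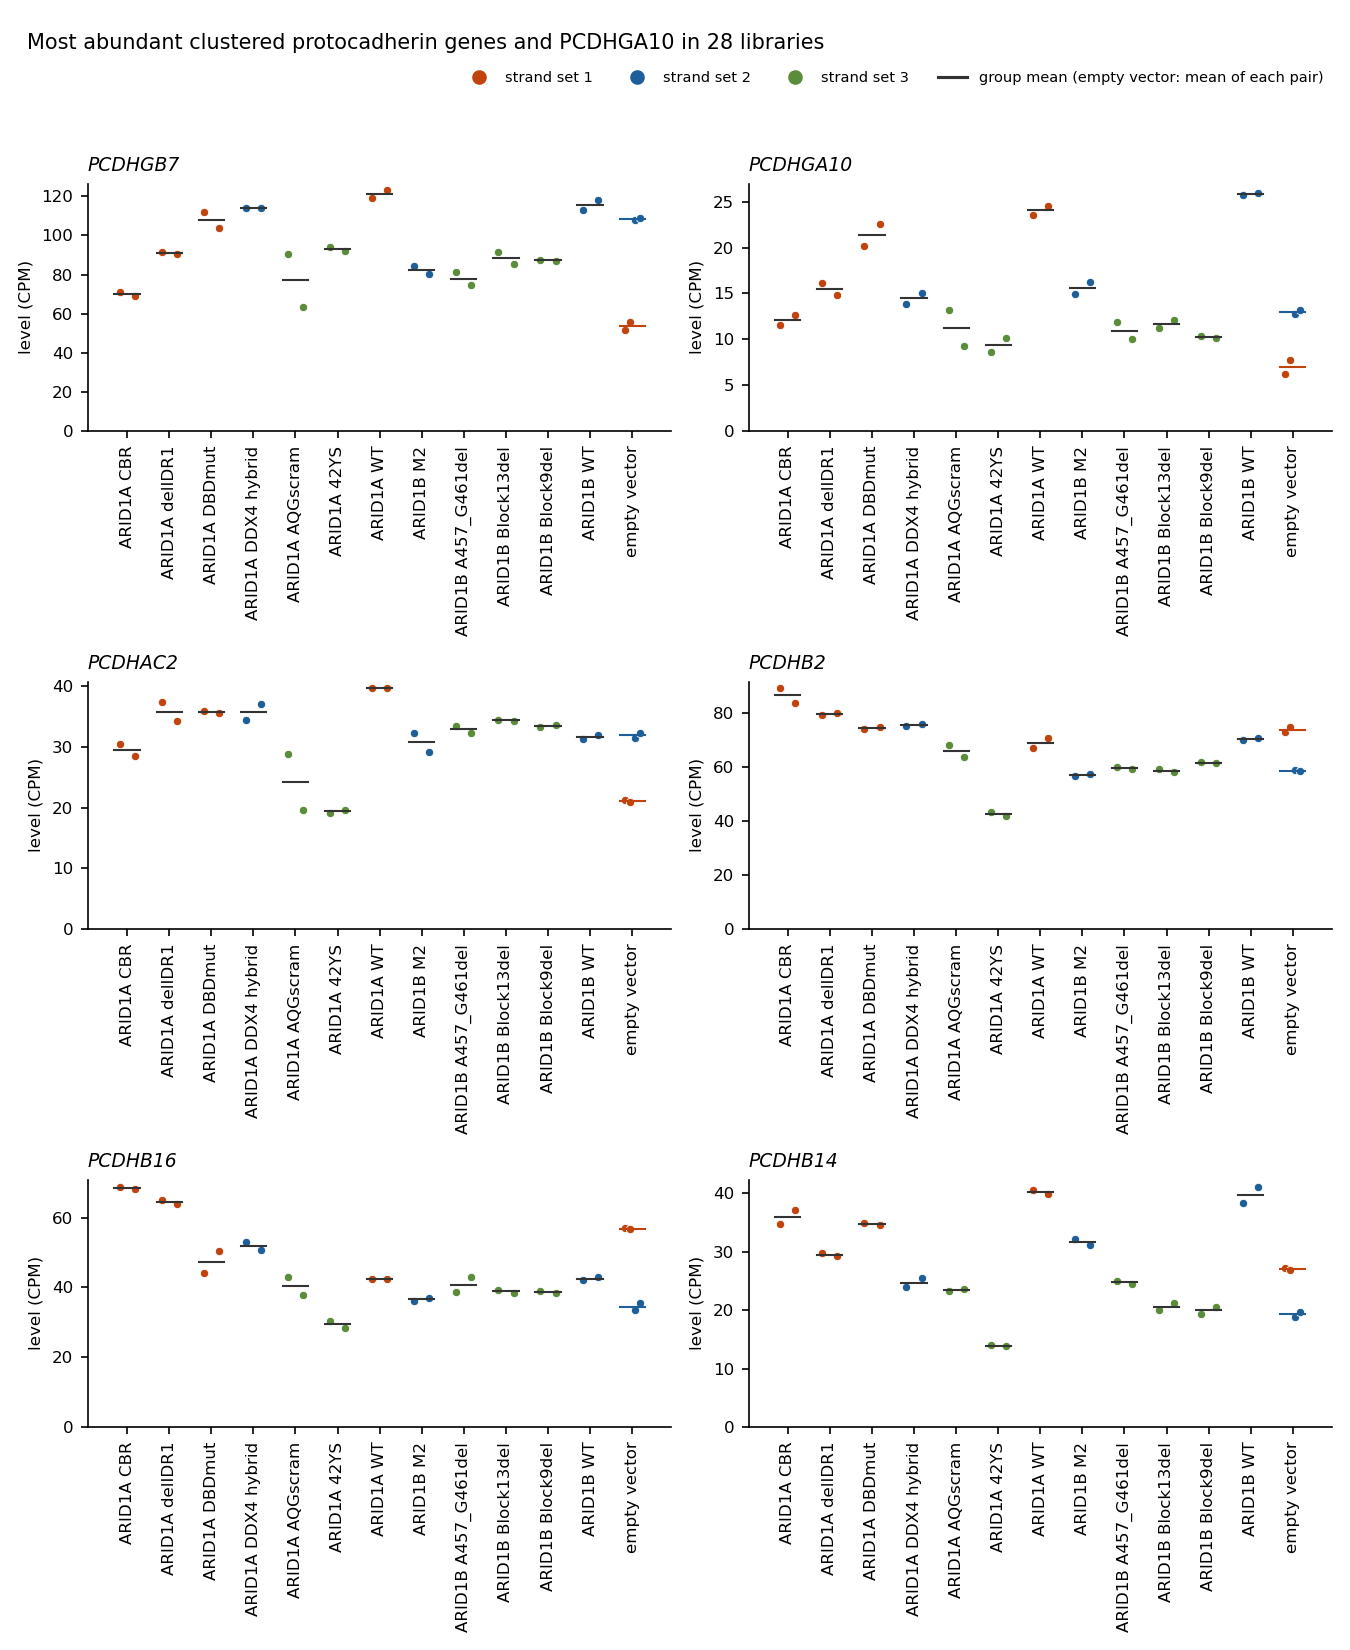
Level in CPM of PCDHGB7, PCDHGA10, PCDHAC2, PCDHB2, PCDHB16 and PCDHB14 in each of 28 libraries by group, 1 point per library coloured by strand set, with bars at the group mean and, for empty vector, at the mean of each pair. PCDHGA10 and PCDHB14 stand above all empty vector libraries with both WT constructs, while PCDHB2 and PCDHB16 lie between the empty vector pairs.

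The summed level of each cluster follows its few leading genes and differed between the constructs. The 16 beta genes summed to 270.1 ± 1.6 CPM with CBR, 241 ± 1.38 with delIDR1, 205 ± 9.28 with DBDmut and 198 ± 0.91 with ARID1A WT (SD, n = 2 each), against 231 ± 2.86 CPM in the empty vector pair of the same set. In set 2 they summed to 202 ± 1.17 CPM with the DDX4 hybrid, 155 ± 0.743 with M2 and 201 ± 6.34 with ARID1B WT, against 150 ± 1.09 CPM in that set's empty vector pair. The 22 gamma genes in set 1 summed to 124 ± 2.41 CPM with CBR, 143 ± 2.16 with delIDR1, 154 ± 2.54 with DBDmut and 170.3 ± 3.59 with ARID1A WT, against 92.6 ± 3.94 CPM with empty vector. In set 1 the order of the constructs by mean beta sum was thus the reverse of their order by mean gamma sum, with overlapping beta sums for DBDmut and ARID1A WT. The gamma order was that of PCDHGB7 and PCDHGA10, for without these genes the gamma sum was 41.2 CPM with CBR, 36.9 with delIDR1, 25.2 with DBDmut and 25.5 with ARID1A WT, against 32.0 CPM in the own pair. In set 2 the gamma sum was 154 ± 0.66 CPM with the DDX4 hybrid, 114 ± 2.79 with M2 and 166 ± 6.25 with ARID1B WT, against 142 ± 1.15 CPM with empty vector. The lowest sums of all clustered genes were with 42YS, at 267 CPM in both libraries. The empty vector pairs had 365 ± 6.72 CPM in set 1 and 343 ± 2.27 CPM in set 2 (SD, n = 2 each). Since 42YS is of set 3, its set and construct cannot be told apart. No test was made on sums.

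**Figure D3:**
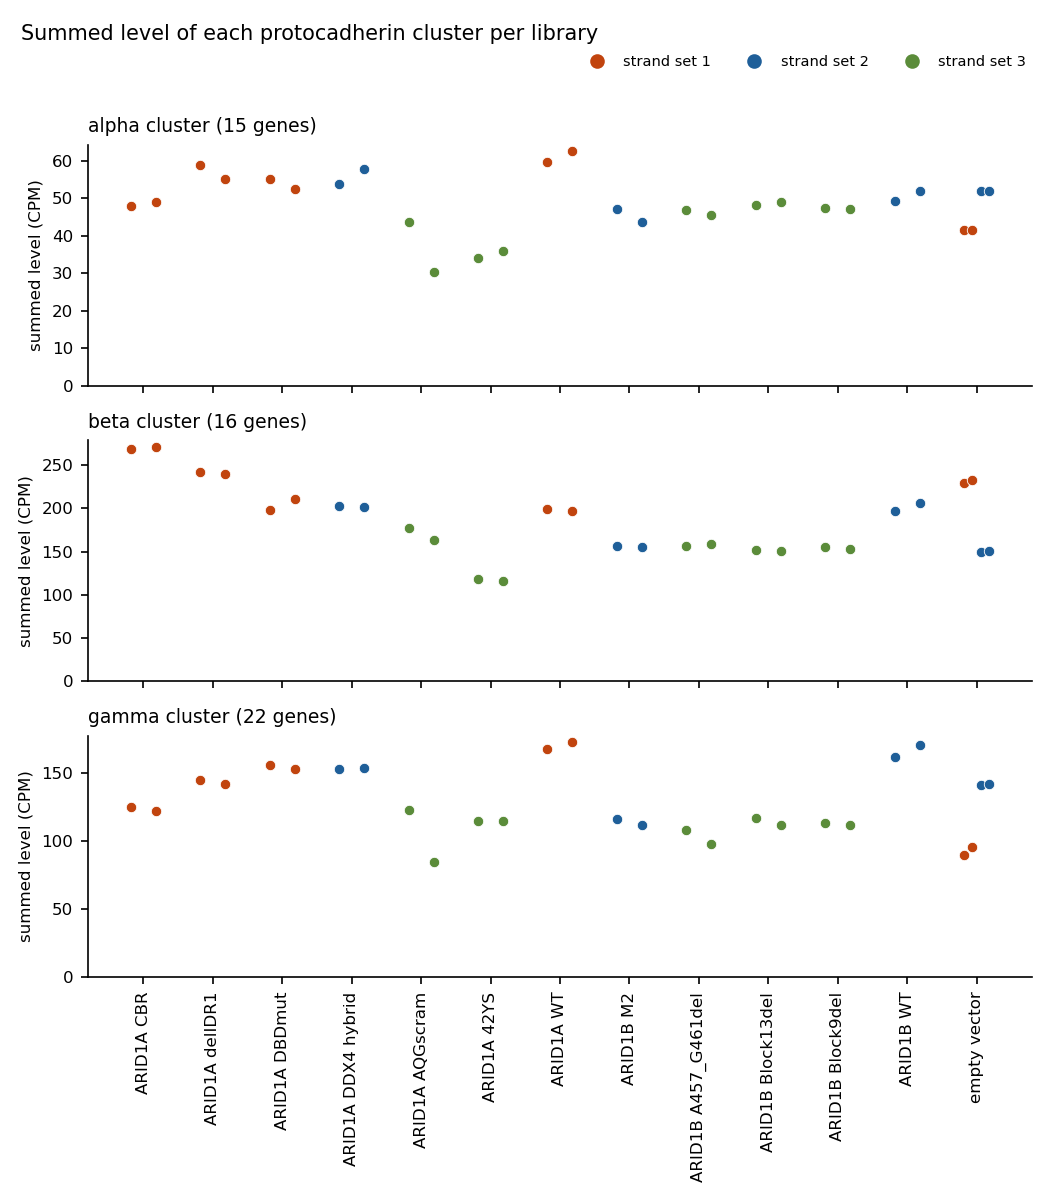
Summed level in CPM of the 15 alpha, 16 beta and 22 gamma genes in each of 28 libraries by group, 1 point per library coloured by strand set. CBR has the highest beta sum, at 270.1 CPM, and 42YS the lowest, at 117 CPM.

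The truncation CBR shifted the balance of the clusters relative to ARID1A WT and lowered PCDH10, PCDH19 and PCDH20 of the 4 non-clustered genes that WT had raised. CBR against ARID1A WT gave 16 higher and 8 lower of 46 members, where 47.5% of all genes were called. All 16 were clustered, with 1 alpha, 7 beta and 8 gamma genes. Fitted with the empty vector pairs apart, which leaves this within-set difference in place and lowers the spread, 21 were higher and 10 lower, where 62.5% of all genes were called. PCDHB16, at 68.9 and 68.3 CPM with CBR, against 42.3 and 42.3 CPM with ARID1A WT, rose by 0.70 on the log2 scale (adjusted p = 0.00319). PCDHB2, at 89.3 and 83.8 CPM with CBR, against 67.2 and 70.6 CPM with ARID1A WT, rose by 0.33 (adjusted p = 0.00591). For both genes the CBR libraries were clearly the higher. PCDHGB7 fell instead, to 71.2 and 69.2 CPM with CBR, against 119 and 123 CPM with ARID1A WT (log2 fold change -0.78, adjusted p = 0.0151). PCDHGA10 fell to 11.6 and 12.7 CPM with CBR, against 23.6 and 24.5 CPM with ARID1A WT (-0.98 ± 0.229, SE; adjusted p = 0.00167), and PCDHAC2 fell by 0.43 (adjusted p = 0.0455). The gamma genes with most reads were thus lower with CBR than with ARID1A WT. Both stayed above the own empty vector pair, which had 51.7 and 55.6 CPM of PCDHGB7 and 6.21 and 7.73 CPM of PCDHGA10. PCDHGB7 and PCDHGA10 together took 66.7% of the gamma sum with CBR, against 85.0% with ARID1A WT and 65.4% in the own pair. The other gamma genes summed to 41.2 CPM with CBR, against 25.5 CPM with ARID1A WT and 32.0 CPM in the own pair. Among those others the C-type genes PCDHGC4 and PCDHGC5, named after their values were seen, had 1.85 ± 0.501 and 2.59 ± 0.298 CPM with CBR, against 0.351 ± 0.166 and 0.72 ± 0.223 CPM with ARID1A WT (SD, n = 2; adjusted p = 0.00261 and 0.00461). Of the non-clustered genes, PCDH19 fell by 1.43 ± 0.243 (SE; adjusted p = 9.01e-05), PCDH20 by 1.87 ± 0.348 (adjusted p = 0.000213) and PCDH10 by 1.08 ± 0.358 (adjusted p = 0.0182), while PCDH7 was not called. The PCDH10 and PCDHGB7 calls were lost without either CBR library or without ARID1A WT replicate 2 (adjusted p 0.0743 to 0.105 and 0.0625 to 0.0729). The PCDHAC2 call was lost without any 1 of the 4 libraries (0.0994 to 0.175), the PCDHB2 call without replicate 1 of either group (0.0539 to 0.0594) and the PCDHGC5 call without ARID1A WT replicate 2 (0.0677).

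The truncation delIDR1 went the same way in the beta cluster and differed from CBR at PCDH20. delIDR1 against ARID1A WT gave 7 higher and 5 lower of 46 members, where 40.2% of all genes were called, and 21 higher and 8 lower with the empty vector pairs apart, where 57.8% were. In that fit 11 of 14 beta genes were higher and 1 lower, where 25.5% of all genes were called higher. Against the own empty vector pair, 3 of 14 beta genes were higher and 3 lower with delIDR1. With ARID1A WT 2 were higher and 8 lower against that pair. Of all genes, 25.2% were called higher and 31.1% lower with delIDR1, and 29.9 and 30.8% with ARID1A WT. PCDHB16, at 65.0 and 63.9 CPM with delIDR1, against 42.3 and 42.3 CPM with ARID1A WT, rose by 0.61 (adjusted p = 0.0102), and PCDHGA5, at 2.52 ± 0.0514 CPM, against 1.24 ± 0.157 CPM (SD, n = 2), rose by 1.04 ± 0.238 (SE; adjusted p = 0.00197). PCDHB14 fell by 0.45 (adjusted p = 0.00653) and PCDHGA10 by 0.64 (adjusted p = 0.0299). PCDH20 had 2 reads with delIDR1, against 93 reads with ARID1A WT, so that ARID1A WT had 54.7 times as many after scaling (95% counting interval 14.7 to 458; adjusted p = 2.31e-07). PCDH19 fell by 0.77 (adjusted p = 0.013) and PCDH10 by 0.92 (adjusted p = 0.0437), the PCDH10 call being lost with DESeq2 (adjusted p = 0.0783). Without any 1 of the 4 libraries the calls of PCDH10 (adjusted p 0.0659 to 0.243) and PCDHGA10 (0.0785 to 0.14) were lost. The PCDHB16 call was lost without either ARID1A WT library or delIDR1 replicate 1 (0.0517 to 0.0552), and the PCDH19 call without replicate 2 of either group (0.071 to 0.11). PCDH1 was at log2 fold changes of 1.07 with delIDR1 (adjusted p = 0.0702) and 0.75 with CBR (adjusted p = 0.192), and passed the test in both once the empty vector pairs were apart (adjusted p = 2.8e-13 and 2.91e-10).

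DBDmut, which changes the DNA-binding ARID domain, was close to ARID1A WT. Against ARID1A WT, 1 of 46 members was higher and 0 lower, where 5.62% of all genes were called, 0.999% higher and 4.62% lower. That gene was PCDH20, at 4.75 and 5.07 CPM with DBDmut, against 2.4 and 2.44 CPM with ARID1A WT (log2 fold change 1.02 ± 0.285, SE; adjusted p = 0.0392). Both DBDmut libraries were well above both WT libraries, but the call was lost without any 1 of these libraries (adjusted p 0.155 to 0.238) and with DESeq2 (adjusted p = 0.0622). With the empty vector pairs apart, PCDH20 kept its call (adjusted p = 0.000641) and 4 members were lower, where 19.1% of all genes were called: PCDH1 by 0.53, PCDH7 by 0.17, PCDHB14 by 0.21 and PCDHA8 by 0.70.

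The DDX4 hybrid, in which the IDR comes from an RNA helicase of germ cells, was below ARID1A WT for PCDH20, PCDH7, PCDHB14, PCDHGA10, PCDH19 and PCDH10. Against ARID1A WT it had 0 higher and 6 lower of 46 members, where 36.5% of all genes were called, 19.6% lower. PCDH20 fell by 3.32 ± 0.395 (SE; adjusted p = 2.12e-06), PCDH7 by 0.68 (adjusted p = 7.59e-06), PCDHB14 by 0.70 (adjusted p = 0.000166) and PCDHGA10 by 0.73 (adjusted p = 0.0153), along with PCDH19 and PCDH10. The PCDHGA10 call was lost without any 1 of the 4 libraries (adjusted p 0.0521 to 0.101). The 2 groups lie in different strand sets, so the set and the construct cannot be told apart in this direct comparison. As a difference of responses to the own empty vector pairs, PCDH20 was at -3.06 (adjusted p = 0.0147) and PCDH10, with no read in 1 of the pairs and 2 in the other, at 0.06 (adjusted p = 0.669), and 14 members were higher and 9 lower, where 50.5% of all genes were called. Against empty vector, PCDH10 and PCDH19 were called higher with the DDX4 hybrid in both fits.

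In ARID1B, the M2 deletion lowered PCDH20 and PCDH10 relative to the WT. M2 against ARID1B WT gave 0 higher and 9 lower of 46 members, where 14.3% of all genes were called, 8.31% higher and 6.01% lower. PCDH20 fell to 0.306 and 0.312 CPM with M2, against 4.23 and 3.16 CPM with ARID1B WT (log2 fold change -3.55 ± 0.373, SE; adjusted p = 2.29e-06). PCDH10 fell to 0.229 and 0.223 CPM with M2, against 2.14 and 2.36 CPM with ARID1B WT (-3.29 ± 0.414; adjusted p = 1.96e-05). For both genes the groups were far apart. ARID1B RNA was 4250.4 CPM with M2 and 3597 CPM with ARID1B WT, and its part was not tested. PCDH19 fell by 0.83 (adjusted p = 0.0294), PCDHGA10 by 0.73 (adjusted p = 0.0327), PCDHB2 by 0.30 (adjusted p = 0.0322) and PCDHB8 by 1.58 ± 0.43 (adjusted p = 0.0173), to 0.722 CPM with M2, against 2.17 CPM with ARID1B WT. PCDHB9, PCDHGB2 and PCDHGB3 made up the 9. Without any 1 of the 4 libraries, the calls of PCDH19 (adjusted p 0.0703 to 0.226), PCDHGA10 (0.113 to 0.195), PCDHB2 (0.119 to 0.165), PCDHB9 (0.0503 to 0.177), PCDHGB2 (0.0599 to 0.196) and PCDHGB3 (0.0814 to 0.318) were lost, and that of PCDHB8 without either M2 library or ARID1B WT replicate 2 (0.0864 to 0.136). With the empty vector pairs apart, 1 member was higher and 25 lower, where 34.4% of all genes were called, and these held 11 of 14 beta and 8 of 19 gamma genes. The higher one was PCDH1. The median log2 fold change over the 46 members was -0.68, against 0.01 over all tested genes.

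**Figure D4:**
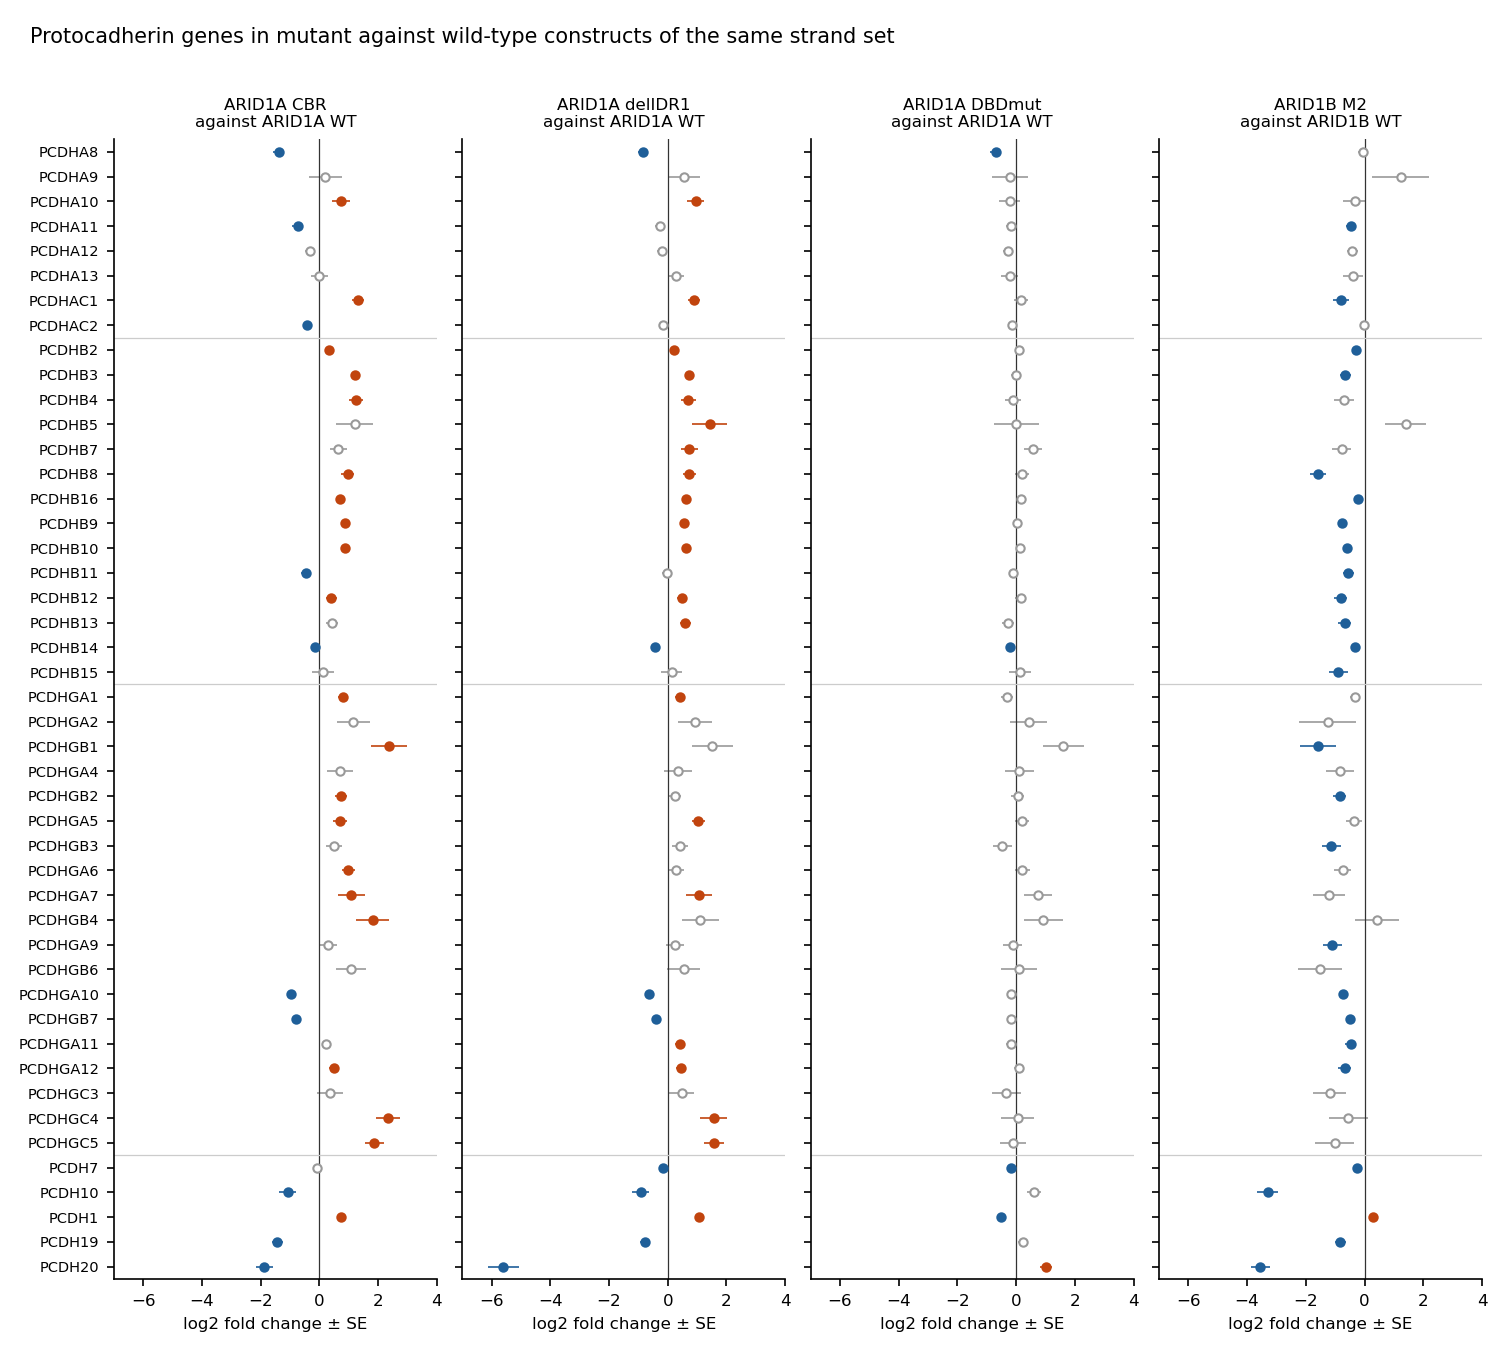
Log2 fold change with its SE for 46 tested members in CBR, delIDR1 and DBDmut against ARID1A WT and in M2 against ARID1B WT, from the fit with the empty vector pairs apart; filled points passed the test, red for higher and blue for lower, and open grey points did not. CBR and delIDR1 show many red points among beta and gamma genes, and M2 shows 25 blue points and 1 red.

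Set against empty vector, CBR raised the most members of the ARID1A mutants of sets 1 and 2 in both fits. CBR had 23 higher and 2 lower of 46 members, where 53.1% of all genes were called, 25.2% higher, and 22 higher and 4 lower against its own pair, where 59.6% were. delIDR1 had 16 higher and 0 lower, where 50.1% were called, and 11 higher and 5 lower against its own pair, where 56.3% were. DBDmut had 8 higher and 2 lower, where 35.1% were called, and 12 higher and 15 lower against its own pair, where 59% were. The DDX4 hybrid had 4 higher and 2 lower, where 39.5% were called, 19.8% lower, and 11 higher and 0 lower against its own pair, where 50.5% were. Against the own pair 10 of 19 gamma genes were higher with CBR and 4 of 19 with delIDR1, and 0 were lower with either. Of all tested genes, 28.7 and 25.2% were called higher and 30.8 and 31.1% lower. The delIDR1 count of higher gamma genes was thus not above the share over all genes. M2 had 5 higher and 17 lower, where 47.3% were called, and 4 higher and 10 lower against its own pair, where 53.1% were. In both fits M2 was higher for PCDH7, PCDH10, PCDH19 and PCDHB14 and lower for PCDHA13, PCDHAC1, PCDHB3, PCDHB9, PCDHB11, PCDHB12, PCDHGA11 and PCDHGA12. The 3 lowest p among these were those of PCDHB12 (log2 fold change -1.44, adjusted p = 0.000234), PCDHA13 (-1.40, adjusted p = 0.000314) and PCDHGA12 (-1.22, adjusted p = 0.000318).

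The constructs of set 3 have no empty vector library of their own set and were compared with those of sets 1 and 2. Of the 41 tested clustered genes, 9 with AQGscram, 23 with 42YS and 18 with A457_G461del were called lower. With Block13del it was 18 and with Block9del 17. Of all tested genes, 13.7, 18, 19.9, 20.2 and 21.2% were called lower with these constructs, in the same order. The beta sums of AQGscram and of the ARID1B deletions, at 151 to 177 CPM, were below those of empty vector replicates 1 and 2, at 229 and 233 CPM, and close to or above those of replicates 3 and 4, at 149 and 151 CPM. The libraries labelled AQGscram had 0 higher and 10 lower of 46 members, where 24.7% of all genes were called. PCDHGA11 was at -1.33 (adjusted p = 0.000841), PCDHA12 at -0.89 (adjusted p = 0.00605) and PCDHAC1 at -1.28 (adjusted p = 0.0111), and the calls of PCDHA12 and PCDHAC1 were lost without replicate 2 (adjusted p = 0.0763 and 0.147). Their replicates stood further apart than those of any other construct, with gamma sums of 84.6 and 123 CPM, and leaving out replicate 1 left 8 calls while leaving out replicate 2 left 2. 42YS had 1 higher and 24 lower, where 33.8% were called, 18% lower. PCDHB2 fell to 43.3 and 41.7 CPM with 42YS, against 73.0, 74.8, 58.9 and 58.5 CPM with empty vector (log2 fold change -0.64 ± 0.0819, SE; adjusted p = 1.22e-05). PCDHB14 fell to 14 and 13.9 CPM with 42YS, against 27.3, 26.8, 18.9 and 19.7 CPM with empty vector (-0.74 ± 0.114; adjusted p = 8.59e-05), and PCDHGA6 fell by 2.06 ± 0.296 (adjusted p = 4.33e-05). Both 42YS libraries were below all control libraries for PCDHB2 and PCDHB14.

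Of the ARID1B deletions, A457_G461del had 4 higher and 19 lower of 46 members, where 39% were called and 19.9% lower, Block13del 1 higher and 19 lower, where 39.3% were, and Block9del 1 higher and 19 lower, where 39% were. The 4 genes higher with A457_G461del were PCDH7, PCDH10, PCDH19 and PCDH20, the same as with ARID1B WT among non-clustered genes. PCDHB12, PCDHGA12 and PCDHGA11 fell by 1.43, 1.26 and 1.24 with A457_G461del. PCDH1 and PCDHGB2 fell by 2.11 and 1.07 with Block13del, and by 2.27 and 1.13 with Block9del. For PCDH1 the size of the fall rests largely on empty vector replicates 1 and 2, at 100.3 and 94.4 CPM. Replicates 3 and 4 had 24.7 and 23.2 CPM, against 14.3 and 14.1 CPM with Block13del and 12.2 and 13.1 CPM with Block9del.

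Within set 3 the comparisons need no empty vector. 42YS against AQGscram gave 0 higher and 3 lower of 46 members, where 15.8% of all genes were called, namely PCDHB2 (-0.63 ± 0.0923, SE; adjusted p = 0.000116), PCDHB14 (-0.75 ± 0.128; adjusted p = 0.000493) and PCDHGA6 (-1.26 ± 0.35; adjusted p = 0.0376). The PCDHGA6 call was lost without any 1 of the 4 libraries (adjusted p 0.0584 to 0.196) and with DESeq2 (0.077). With the empty vector pairs apart it gave 5 higher and 10 lower, where 38.1% were called. Block13del against A457_G461del gave 0 higher and 2 lower, where 5.48% of all genes were called. These were PCDH7, at 71.7 and 70.2 CPM with Block13del, against 93.1 and 88.3 CPM with A457_G461del (-0.35, adjusted p = 0.0225), and PCDHGA5 (-1.12, adjusted p = 0.0246). Both calls were lost without any 1 of the 4 libraries (adjusted p 0.0758 to 0.202 and 0.0837 to 0.216). Block9del against A457_G461del gave 0 higher and 4 lower, where 12.6% of all genes were called. PCDH7 had 62.9 and 67.3 CPM with Block9del, against 93.1 and 88.3 CPM with A457_G461del (-0.48, adjusted p = 0.00115), and PCDHGA5 and PCDH19 fell by 1.17 and 1.14 (adjusted p = 0.00781 and 0.0105). PCDH10 had 2 reads with Block9del, against 14 reads with A457_G461del, or 6.82 times as many with A457_G461del (1.57 to 61.9; adjusted p = 0.0301). The PCDH10 call was lost without replicate 1 of either group (adjusted p 0.27 to 0.348) and with DESeq2 (0.0897). The PCDHGA5 and PCDH19 calls were lost without A457_G461del replicate 1 or Block9del replicate 2 (0.0707 to 0.0752 and 0.17 to 0.221). Block9del and Block13del differed in 0 members in edgeR's quasi-likelihood test, in 0 with DESeq2 and in 0 at an unadjusted p under 0.05, where 0.471% of all genes were called. Among these 3 ARID1B deletions, the group means of PCDH7, PCDH19 and ARID1B RNA were each highest with A457_G461del and lowest with Block9del, and the part of construct RNA was not tested.

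**Figure D5:**
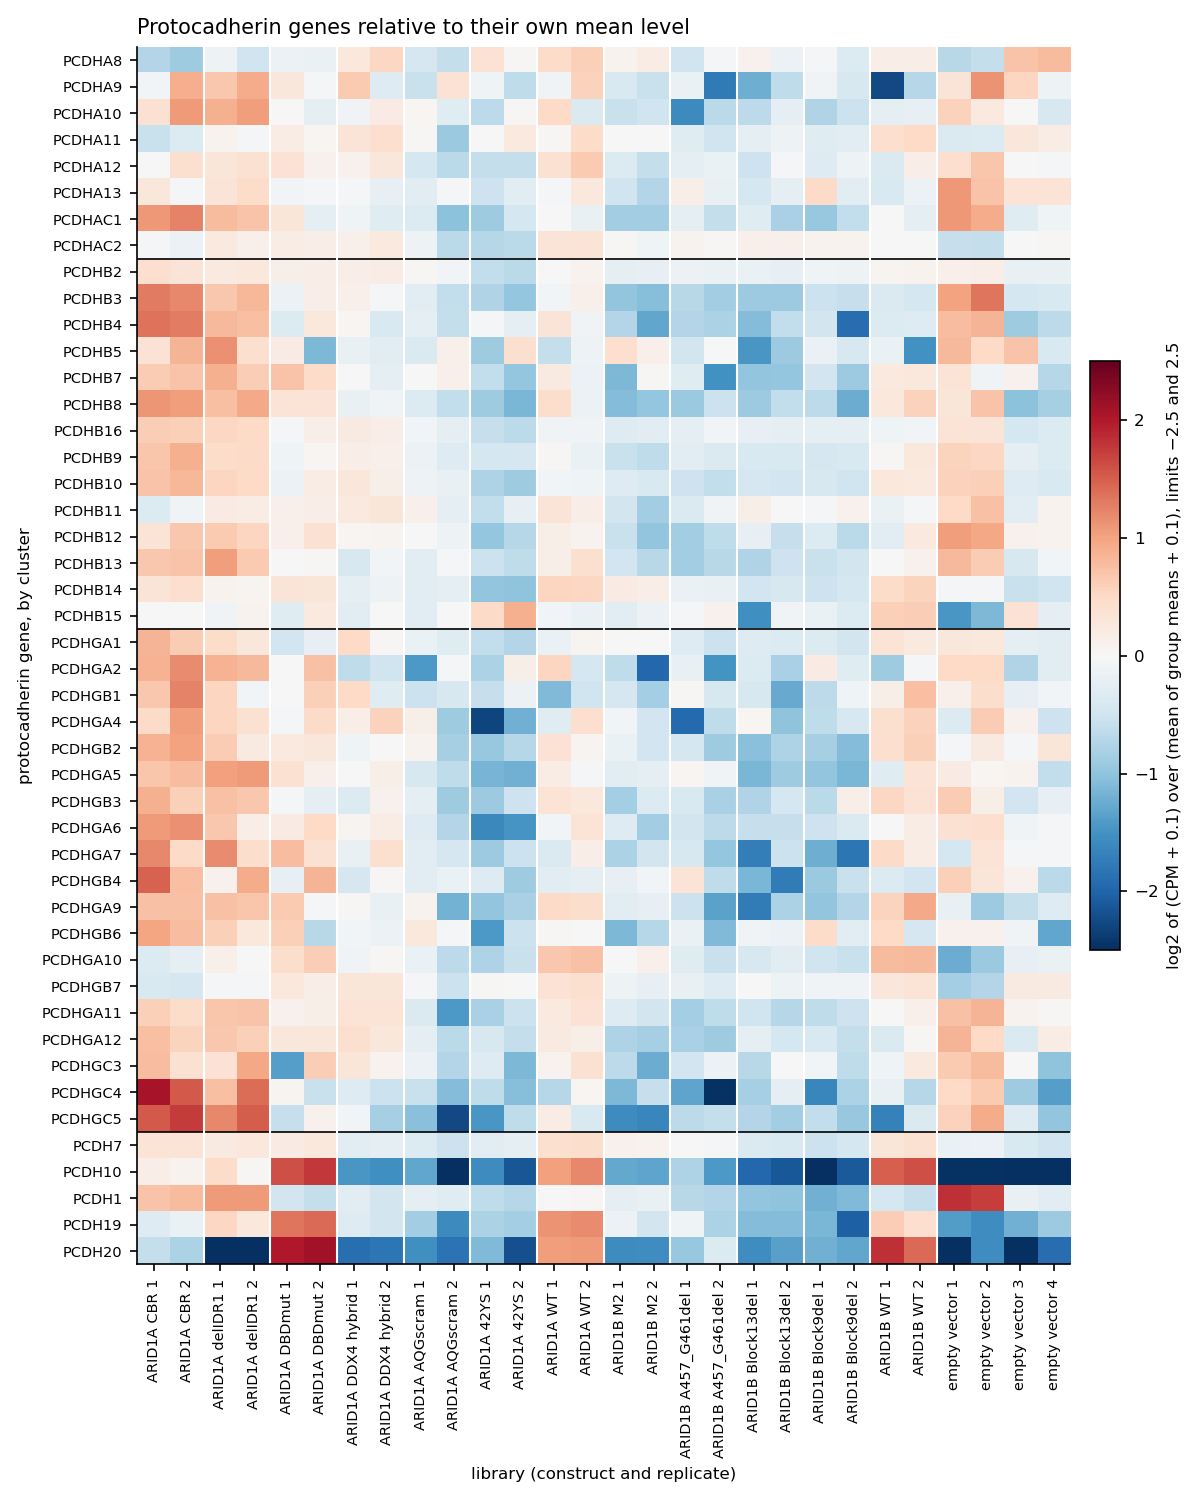
Level of 46 tested members in 28 libraries, as log2 of CPM + 0.1 relative to the mean of the 13 group means + 0.1, with members grouped by cluster and libraries by group, colours ending at 2.5 in either direction. PCDH10 and PCDH20 are high with both WT constructs and DBDmut, and many beta and gamma genes are high with CBR and in empty vector replicates 1 and 2.

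Genes that act on the clusters, lie beside them or work with protocadherins were counted against the 44.5% of all tested genes called with ARID1A WT (21.1% higher) and the 43.1% called with ARID1B WT (19.2% higher), or 60.7 and 52% against the own pairs. Of 13 tested genes of cluster silencing and DNA methylation, ARID1A WT had 0 higher and 3 lower and ARID1B WT 0 higher and 1 lower than empty vector, with median log2 fold changes of 0.02 and -0.10, against -0.06 and -0.07 over all tested genes. Against the own pairs the counts were 6 higher and 2 lower with ARID1A WT and 0 higher and 8 lower with ARID1B WT. SMCHD1, which silences clustered promoters in mouse, averaged 114 CPM with ARID1B WT (n = 2), against 146 CPM with empty vector (n = 4), at a log2 fold change of -0.35 ± 0.0871 (SE; adjusted p = 0.00287). SETDB1, a histone methyltransferase that represses the clusters in mouse neurons, LRIF1 and EHMT1 fell by 0.17, 0.21 and 0.19 with ARID1A WT (adjusted p = 0.0177, 0.00576 and 0.00986), SETDB1 not being called against the own pair (adjusted p = 0.0558). Of 14 CTCF and cohesin genes, 0 were higher and 2 lower with ARID1A WT, and 0 higher and 3 lower with ARID1B WT (medians -0.06 and 0.04). With the own pairs as control they were 3 higher and 3 lower with ARID1A WT, and 0 higher and 5 lower with ARID1B WT. CTCF averaged 58.8 ± 1.67 CPM with ARID1A WT and 67.5 ± 0.63 with ARID1B WT (SD, n = 2), against 79.9 ± 5.0 CPM with empty vector (SD, n = 4), with log2 fold changes of -0.44 (adjusted p = 1.79e-06) and -0.25 (adjusted p = 0.00121). Neighbours of the clusters on chromosome 5 gave 4 higher and 7 lower of 17 with ARID1A WT and 2 higher and 7 lower with ARID1B WT (medians -0.17 and -0.18), and against the own pairs 4 higher and 8 lower, and 1 higher and 7 lower. WDR55 fell by 0.28 and 0.44 (adjusted p = 4.51e-05 and 1.94e-07), KIAA0141 by 0.35 and 0.27 (adjusted p = 5.73e-05 and 0.000867), and TAF7, an intronless gene between the beta and gamma clusters, rose by 0.26 with ARID1B WT (adjusted p = 0.00149).

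Of 40 listed genes of the other cadherin families, 17 passed the filter on low counts. Of these, 10 were higher and 0 lower with ARID1A WT, where 44.5% of all genes were called. With ARID1B WT 10 were higher and 1 lower, where 43.1% were (medians 1.03 and 0.80). In the own-pair fit 11 were higher and 1 lower, where 60.7% were called, and 11 higher and 2 lower, where 52% were. Genes nearly unread with empty vector, such as CDH3 at 0.0979 CPM, could pass only through construct libraries. This can tilt the counts and medians upward. CDH24, a type II cadherin, averaged 85.5 ± 1.26 CPM with ARID1A WT and 72.6 ± 0.172 with ARID1B WT (SD, n = 2), against 39.4 ± 1.61 CPM with empty vector (SD, n = 4), with log2 fold changes of 1.12 (adjusted p = 6.24e-12) and 0.88 (adjusted p = 4.58e-10). FAT4, a giant cadherin of planar polarity, averaged 31.7 ± 1.62 CPM with ARID1A WT and 31.1 ± 3.74 with ARID1B WT, against 9.33 ± 2.63 CPM with empty vector (1.74 and 1.72, adjusted p = 3.42e-08 and 6.03e-08). CELSR2 rose by 1.03 with ARID1A WT (adjusted p = 2.58e-07) and CDH3 by 3.33 with ARID1B WT (adjusted p = 2.98e-06). Cytoplasmic partners gave 5 higher and 5 lower of 16 with ARID1A WT and 5 higher and 2 lower with ARID1B WT (medians -0.06 and 0.03), and against the own pairs 5 higher and 6 lower, and 6 higher and 3 lower. RET, a receptor kinase that binds clustered protocadherins, averaged 29 ± 1.32 CPM with ARID1A WT and 6.09 ± 0.532 with ARID1B WT, against 1.54 ± 0.512 CPM with empty vector (log2 fold changes of 4.25 and 2.0, adjusted p = 2.41e-14 and 3.07e-08). CTNNB1 rose by 0.51 and 0.53 and AXIN1 fell by 0.49 and 0.64. Of 7 genes of proteolytic processing, the cleavage that releases the intracellular part, 2 were higher and 3 lower with ARID1A WT and 4 higher and 2 lower with ARID1B WT (medians -0.06 and 0.16), and against the own pairs 2 higher and 4 lower, and 4 higher and 2 lower. ADAM10, the sheddase, rose by 0.30 and 0.37 (adjusted p = 0.000473 and 7.64e-05), APH1B rose by 0.81 and 0.80, and PSEN2 fell by 0.51 with ARID1A WT.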

How the data were processed

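The authors deposited 1 count table per library, with raw counts of reads per gene in the 4-column layout written by STAR, and the column for the strand opposite to the read was used. Per the submitters' processing notes, STAR 2.5.2b, Bowtie2 2.29, bcl2fastq and hg19 were named, without their roles. Per the labels' protocols, polyA RNA libraries were made. Lines that name no gene (4 per table) stayed out of library sizes; reads assigned to no gene were 11.5 to 27.4% and ambiguous reads 1.07 to 1.75%. Reads on constant exons shared by several alpha or gamma genes are ambiguous, so these counts come mainly from variable exons.

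Counts of all 28 libraries were fitted together with edgeR 4.0.16 (R 4.3.3, TMM factors, filterByExpr by group, quasi-likelihood F test, two-sided), giving 14220 tested genes. A gene counts as called where its p, adjusted over all tested genes by Benjamini-Hochberg, is below 0.05. A further fit gave each empty vector pair a group of its own. In it, comparisons between constructs of sets 1 and 2 were differences of responses. Alternatives were RLE factors, DESeq2 1.42.0, no filter, counts without strand, the replicate block and leaving out each library. Counting intervals are exact 95% intervals and cover counting error only. Exon lengths came from GENCODE release 29 and promoters from RefSeq.

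Values in every library are given for the 5 clustered and 5 non-clustered members with the highest mean CPM over groups and for those with the smallest p in the WT comparisons, and other comparisons name at most 3 of their called members, by smallest p. PCDHGA10, PCDHGA9 and further members were named after their values were seen. The members and lists were chosen with earlier results of these data known. Calculations were tested on simulated counts.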

Additional observations from a re-analysis of the deposited data

How the results depend on the processing

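Of 1265 recomputed log2 fold changes over 115 pairs of a named member and a comparison, 1102 kept their direction and their side of the threshold, 129 lost and 24 gained a call, and 10 changed sign. Of the lost calls, 108 came from leaving out 1 library. With the empty vector pairs apart, the number of members called became 26 for ARID1A WT, 27 for DBDmut, 11 for the DDX4 hybrid and 14 for M2 against empty vector, 29 for delIDR1, 5 for DBDmut and 23 for the DDX4 hybrid against ARID1A WT, 26 for M2 against ARID1B WT, 19 for ARID1A WT against ARID1B WT, 15 for 42YS against AQGscram and 5 for Block13del against A457_G461del. The replicate numbers did not pair the libraries (correlation of deviations over 66 group pairs -0.132 to 0.119, median 0.00154). Since numbers 3 and 4 occur only in empty vector, the replicate block in effect set constructs against empty vector replicates 1 and 2. It gave 26 calls for ARID1A WT, 26 for DBDmut, 23 for the DDX4 hybrid, 28 for AQGscram, 30 for ARID1B WT, 34 for M2, 36 for A457_G461del, 36 for Block13del and 34 for Block9del against empty vector. Under the same block there were 27 for delIDR1, 5 for DBDmut and 12 for the DDX4 hybrid against ARID1A WT, 24 for M2 against ARID1B WT, 9 for ARID1A WT against ARID1B WT, 14 for 42YS against AQGscram and 5 for Block13del against A457_G461del. DESeq2 gave 13 calls for Block9del against empty vector, 0 for DBDmut against ARID1A WT and 1 for Block13del against A457_G461del, and no filter gave 1 for the last. With strand ignored the alpha sum was 51.7 CPM in place of 48.5 CPM, as it then holds antisense reads.

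The sign changed for PCDHB2 with ARID1A WT against empty vector (-0.10 with the pairs apart, -0.10 under the block and -0.00 to 0.11 leaving out 1 library) and with ARID1B WT (-0.07 under the block). It also changed for PCDHB16 with ARID1A WT (-0.24 to 0.00 leaving out 1 library) and with ARID1B WT (0.30 with the pairs apart, -0.23 to 0.01 leaving out 1 library), for PCDHAC2 with ARID1B WT (-0.02 with the pairs apart) and for PCDH10 in the DDX4 hybrid against ARID1A WT (0.06 with the pairs apart). Except where these settings use other control libraries, the cause was not tested.

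Leaving out 1 library at a time, the calls against empty vector ranged over 7 to 16 for ARID1A WT, 17 to 28 for CBR, 5 to 21 for delIDR1, 7 to 13 for DBDmut, 1 to 12 for the DDX4 hybrid, 2 to 15 for AQGscram, 14 to 26 for 42YS, 9 to 21 for ARID1B WT, 14 to 29 for M2, 11 to 30 for A457_G461del, 9 to 26 for Block13del and 6 to 28 for Block9del. Between constructs they ranged over 13 to 20 for CBR, 3 to 6 for delIDR1, 0 to 0 for DBDmut and 5 to 5 for the DDX4 hybrid against ARID1A WT, 2 to 3 for M2 against ARID1B WT, 2 to 3 for 42YS against AQGscram, and 0 to 0 for Block13del and 1 to 4 for Block9del against A457_G461del. A lone library left in a group is assumed to vary like the other groups. The replicate block ended the calls of PCDH20 with Block9del (adjusted p = 0.0925) and PCDH10 with the DDX4 hybrid (adjusted p = 0.0689) against empty vector. Genes such as PCDH10 and PCDH20, with few reads in control libraries, are limited by depth.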

Other observations

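At PCDHA1 to PCDHA7, most reads lay on the strand opposite to the gene, unlike in the rest of the clusters. In the libraries of set 2, where strand was kept best, 204 of these reads were antisense and 17 sense, or 92.3% antisense (exact 95% interval 88.0 to 95.5). In the same libraries the antisense share was 7.22% for PCDHA8 to PCDHA13, 0.116% for PCDHAC1 and PCDHAC2, 0.146% for the beta and 0.233% for the gamma cluster. The antisense share at PCDHA1 to PCDHA7 was 80.8% in set 1 and 88.0% in set 3. Summed antisense reads at these 7 genes were 1.11 to 1.80 CPM with empty vector. Below all of these lay AQGscram, at 0.596 and 0.634 CPM, A457_G461del, at 0.627 and 0.693, and M2, at 0.801 and 0.879. So did Block13del, at 0.892 and 1.04 CPM, and Block9del, at 0.93 and 0.999. These groups had 29 to 47 antisense reads each. Only M2 has an empty vector pair in its own set, at 1.11 and 1.34 CPM. The others are of set 3, so for them set and construct cannot be told apart. CBR, at 1.58 and 1.86 CPM, and ARID1A WT, at 0.878 and 2.01 CPM, overlapped with empty vector, as did the remaining constructs. The sense reads of these genes were too few to be tested.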
